A study of Mus musculus with 2 samples.

Results

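The SOCS family comprises 8 mouse genes, Socs1 to Socs7 and Cish. Its members were taken as every called nascent transcript whose assigned gene name is 1 of these 8, in an untreated library and in a library made after 1 hr of interleukin-4 (IL-4). Names of the family were carried by 6 genes in control and by all 8 after IL-4, of 11054 genes named in either library. They accounted for 17 of 43122 control transcripts and 42 of 51365 IL-4 transcripts. The cells were wild-type mouse bone marrow-derived macrophages (BMDMs) on the C57BL/6 background, from animals aged 8 to 12 weeks, grown for 6 days in L929 cell supernatant, which supplies M-CSF. Both groups share that growth factor. Control cells received no IL-4, and treated cells received IL-4 at 20 ng/ml. How many animals were combined is not given in the sources used here. Global run-on sequencing (GRO-seq) captures RNA that engaged polymerases extend with a bromine-labelled nucleotide in isolated nuclei, so it reads ongoing transcription and not stored mRNA. Run-on reactions of a condition were pooled into 1 library, so n = 1 throughout, no value below has a replicate error and no test between conditions was possible.

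SOCS proteins are the feedback inhibitors of cytokine receptors that signal through Janus kinases (JAKs) and STAT factors. Each has an SH2 domain, which binds phosphorylated tyrosines on receptors or kinases, and a C-terminal SOCS box, which recruits elongins B and C and a cullin to tag bound proteins for degradation. SOCS1 and SOCS3 also carry a short kinase inhibitory region that blocks the JAK active site. CISH and SOCS1 to SOCS3 are induced by cytokines, whereas SOCS4 to SOCS7 have longer N-terminal regions and act more on growth factor receptors. In IL-4 signalling, JAK1 and JAK3 at the IL-4 receptor phosphorylate STAT6, and SOCS1 is a known inhibitor of this step in macrophages.

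Transcripts are strand-specific segments that each carry a score and a genomic annotation. The score is a number from the transcript caller given to 1 decimal, and its scaling to library size is not stated, so sequencing depth is unknown. The gene value used below is the highest score among the transcripts that carry the gene's name. It is a value within a gene and is not compared between genes. The median gene had a value of 0.5 in control against 0.3 with IL-4, and log2 ratios over the 8879 genes with a value in both libraries had a median of -0.38. Log2 ratios were therefore centred on that median. The rounding range beside a ratio is what the printed decimal allows, with each score known to within 0.05. Total called length was 1.71 times as large after IL-4 as in control, and the number of transcripts was 1.19 times as large, so gains in called transcripts must be read against this background. Macrophage identity was checked on 10 marker genes, of which 9 were named in both libraries, with summed highest scores of 23.1 and 22.5. No transcript carried the name Spi1, but transcripts assigned to other genes covered 28.5% of Spi1 on its own strand in control and 38.0% after IL-4. Of 32 markers for T cells, B cells, neutrophils, erythroid cells, fibroblasts and dendritic cells, 6 were named in control and 8 after IL-4, and 2 and 3 of them, respectively, had a transcript on the gene's own strand within the gene. No fibroblast marker was named in either library. The highest scores among these markers, 18.9 in control and 25.5 after IL-4, were those of the dendritic cell marker Cd209a. They came from 1 call in each library, and own-strand coverage of Cd209a was 0% in both. By summed highest scores the dendritic cell list thus stood near the macrophage list. Of the 7 neutrophil markers, 2 were named in control and 3 after IL-4, with summed highest scores of 1.1 and 0.6, while own-strand coverage of S100a8 was 31.9% and 82.9%, that of S100a9 0% and 20.6%, that of Ltf 0% and 1.80%, and that of Mpo 0.471% and 0%. In such bulk material, fewer cells transcribing a gene and less transcription per cell cannot be told apart.

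Promoter sequences from RefSeq (GRCm38.p6) were matched by symbol for Socs1, Socs3, Socs4 and Cish. Windows are shown for the 3 of these that were at least 2-fold higher by centred highest score (Socs1, Socs3) or called only after IL-4 (Cish). The 2-fold call of Socs3 did not hold without centring or over its whole rounding range. Each window runs from 250 bases before the RefSeq start to base 30 after it, 5′ to 3′ on the gene's strand. STAT dimers recognise the palindrome formed by TTC and GAA arms. Most STATs prefer a spacer of 3 bases (TTCNNNGAA), and a spacer of 4 (TTCNNNNGAA) is used by STAT6. Both motifs read the same on either strand. Capitals mark every match.
Cish, chr9:107296409-107296688, plus strand: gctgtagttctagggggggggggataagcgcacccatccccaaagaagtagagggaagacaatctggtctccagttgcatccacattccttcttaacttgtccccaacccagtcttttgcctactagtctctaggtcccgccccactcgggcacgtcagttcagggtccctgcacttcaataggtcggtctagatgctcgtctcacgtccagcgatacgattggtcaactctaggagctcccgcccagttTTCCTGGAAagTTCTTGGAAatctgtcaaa
Socs1, chr16:10785507-10785786, minus strand: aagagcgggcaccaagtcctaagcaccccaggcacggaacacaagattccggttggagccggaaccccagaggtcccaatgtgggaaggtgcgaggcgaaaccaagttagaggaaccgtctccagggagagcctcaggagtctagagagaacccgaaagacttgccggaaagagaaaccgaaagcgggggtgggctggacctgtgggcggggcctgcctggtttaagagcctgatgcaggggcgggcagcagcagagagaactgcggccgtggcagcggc
Socs3, chr11:117969337-117969616, minus strand: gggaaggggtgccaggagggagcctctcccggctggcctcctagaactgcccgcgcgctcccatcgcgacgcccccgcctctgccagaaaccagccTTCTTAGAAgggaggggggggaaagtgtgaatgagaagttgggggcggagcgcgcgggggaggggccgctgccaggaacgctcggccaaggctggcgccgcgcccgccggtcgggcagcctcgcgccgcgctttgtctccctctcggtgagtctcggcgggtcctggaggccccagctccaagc

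Cish held 2 matches with the 3-base spacer, starting at bases 1 and 12 after the RefSeq start, and Socs3 held 1, starting at base -154. Neither held a match with the 4-base spacer used by STAT6. Socs1 and Socs4 held no match of either kind in this window, which says only that these letters are absent there. Over 32817 promoter windows, from 250 bases before to 50 after the start, 8.29% held TTCNNNGAA at least once, 0.457% held it at least 2 times, and 6.94% held TTCNNNNGAA. Entries for the other members were not among the sequences used here, and no binding data were analysed.

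Socs1 (ENSMUSG00000038037.5, chromosome 16, 10782240 to 10785536, minus strand), the inhibitor best known to act on JAK1 and JAK2, had by far the largest difference among the family's score ratios. Its highest score was 0.3 in control and 2.5 after IL-4. The centred log2 ratio was 3.44 (rounding range 3.19 to 3.73), rank 3 from the top of the 8879 genes with a ratio. In control, the gene carried 1 transcript of its own strand, 288 bp long (10785211 to 10785498), whose 5′ end lay 38 bp inside the gene. At the same place the IL-4 library had a 535 bp transcript (10784996 to 10785530) that scored 2.0 and began 6 bp from the annotated start, next to the promoter printed above. Most of the new signal lay further along, where control had no call.

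After the transcript at the start came 1 of 1263 bp in exon 2 with the highest score, 2.5, then 1 of 1585 bp over the termination site scoring 1.1, and then 1 of 1803 bp scoring 1.2. That last transcript (10780319 to 10782121) lay wholly beyond the annotated 3′ end. The signal thus ran 1921 bp past the annotated end of the gene. From start to end the calls were nearly continuous, separated by at most 41 bp within and after the gene. In all, 99.2% of the annotated gene lay under own-strand transcripts after IL-4, against 8.74% in control. Exons and the intron of the first-numbered annotated transcript were both filled, at 99.1% and 100% after IL-4, compared with 2.44% and 43.2% in control.

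**Figure D1:**
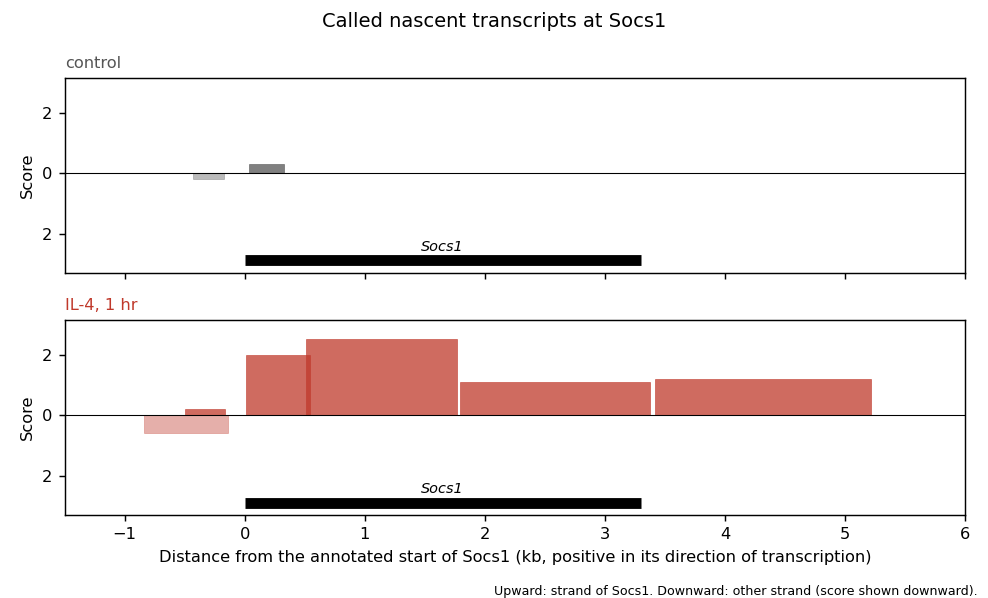
Called transcripts around Socs1 in control (top) and after IL-4 for 1 hr (bottom), as bars whose width is the transcript and whose height is its score, upward for the strand of Socs1 and downward for the other strand, against distance from the annotated start in kb. A short segment of score 0.3 at the start of the gene in control is replaced after IL-4 by calls of scores 1.1 to 2.5 over the whole gene and 1921 bp beyond it.

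Upstream of Socs1, transcription away from the gene was also higher. The divergent transcript on the other strand scored 0.2 in control (10785714 to 10785968, 255 bp) and 0.6 after IL-4 (10785681 to 10786378, 698 bp). A further own-strand transcript of score 0.2, 336 bp long, was called before the annotated start only after IL-4. The remaining transcript with the name Socs1, of score 0.3 after IL-4, lay in intron 21 of the neighbour Clec16a on the strand of Clec16a, and received its name by proximity alone.

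Cish (ENSMUSG00000032578.7, chromosome 9, 107296026 to 107302784, plus strand), a STAT5 target that binds cytokine receptors through its SH2 domain, had no called transcript in control. After IL-4 it had 10, with a highest score of 0.6. No ratio can be formed without a control value. Of the 1227 genes named only after IL-4, 38 had a value of at least 0.6 and 9 had at least 10 transcripts, Cish included in both counts. The lowest score called in control was 0.1. The IL-4 library went lower, with 13 calls printed at 0, where the untreated library had 0 such calls. Its median call scored 0.2, against 0.3 for the untreated library. How far this unequal floor accounts for low calls found only after IL-4, for Cish or other members, was not tested. The caller's limit at unknown depth is not known, so the absence of a call does not show that Cish was silent.

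The Cish calls traced the gene from 5′ to 3′. The strongest (107296899 to 107297661, 763 bp, score 0.6) began 240 bp after the RefSeq start, and thus after the paired motif matches printed above. The annotated gene used for coverage starts further upstream, at 107296026, which is 873 bp before this call. The printed window thus lies within that annotated gene. A 1934 bp transcript of score 0.4 followed in intron 1, then 3 shorter ones of score 0.3 in intron 1, exon 3 and the 3′ UTR. The last of the run was a 1975 bp transcript of score 0.1 across the termination site, which passed the annotated end by 804 bp. Scores within this run were therefore highest at the 5′ side and lowest at the 3′ side, unlike those of Socs1, where the highest score was in exon 2. Own-strand transcripts covered 69.3% of the annotated gene after IL-4 and 0% in control. For its first-numbered annotated transcript, 38.6% of exon sequence and 89.6% of intron sequence lay under calls after IL-4. The intron signal is that of unspliced, nascent RNA.

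Around Cish, 4 other transcripts with its name appeared only after IL-4. A divergent transcript of score 0.2 (107295558 to 107295930) pointed away from the gene just before its annotated start. Downstream, a 494 bp transcript of score 0.1 lay in a simple repeat, and a pair of intergenic transcripts on opposite strands, both of score 0.1, started at 107313018 (minus strand) and 107313097 (plus strand), about 17 kb from the start of Cish. A score of 0.1 is the lowest printed above 0.

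**Figure D2:**
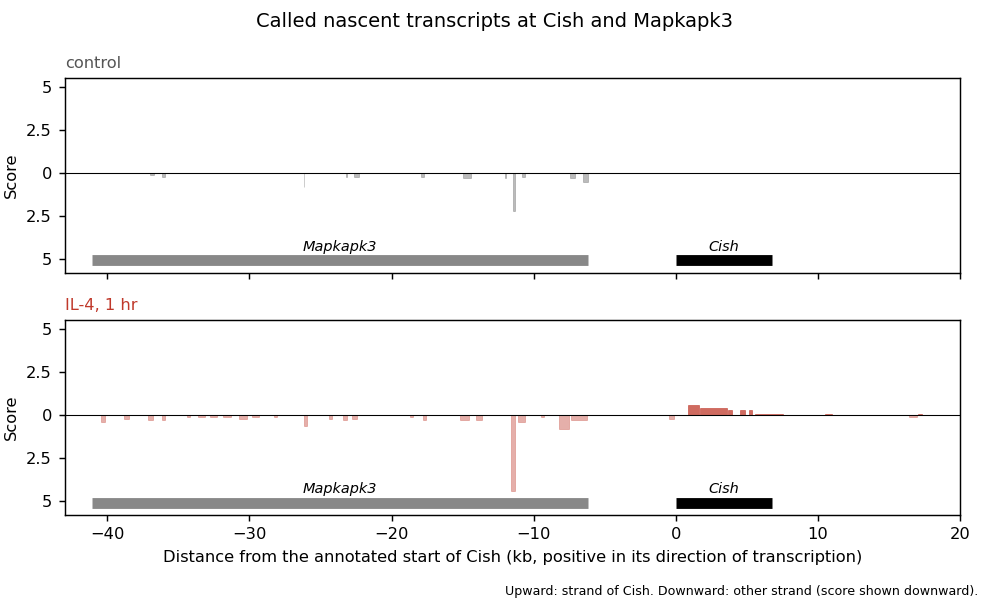
Called transcripts around Cish and its upstream neighbour Mapkapk3 in control (top) and after IL-4 for 1 hr (bottom), drawn as bars of transcript width and score height, upward for the strand of Cish and downward for the other strand, against distance from the annotated start of Cish in kb. No bar lies on Cish in control, and a run with scores of 0.1 to 0.6 covers it after IL-4, while Mapkapk3 on the other strand reaches 2.2 in control and 4.4 after IL-4.

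Socs2 (ENSMUSG00000020027.18, chromosome 10, 95385362 to 95417180, minus strand), best known as the inhibitor of growth hormone receptor signalling, was the other member without a call in control. After IL-4 it had 3 transcripts, all on its own strand. The strongest scored 0.3 over 867 bp at the promoter (95415982 to 95416848), and the others scored 0.1, at 455 and 400 bp. They covered 5.41% of the annotated gene and 24.6% of the 5368 bp span of its first-numbered transcript, against 0% in control by either measure. A divergent transcript of score 0.2 at the Socs2 start, assigned to the neighbouring gene 5730420D15Rik, was likewise called only after IL-4.

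Socs3 (ENSMUSG00000053113.3, chromosome 11, 117966079 to 117970047, minus strand), the inhibitor of gp130-type receptors such as that for IL-6, differed less. Its highest score was 0.3 in control and 0.5 after IL-4, from transcripts of 345 and 322 bp that share their 5′ end at 117969180 in the 5′ UTR of exon 1. The centred log2 ratio was 1.12 with a rounding range of 0.74 to 1.52, so values under 2-fold are within what the printed decimal allows. Without centring the ratio was 0.74, and with scores summed over transcript length it was 0.90, both under 2-fold. A second transcript, of score 0.1 in the 3′ UTR, was called only after IL-4, and own-strand coverage of the gene was 8.69% in control and 21.5% after IL-4. Restricted to transcripts with a score of at least 0.3, coverage was 8.69% and 8.11%.

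**Figure D3:**
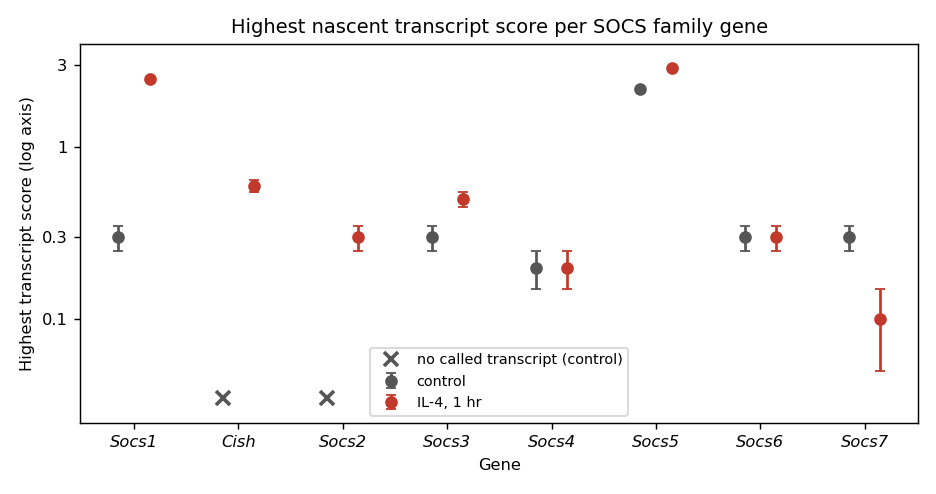
Highest transcript score of each SOCS family gene in control (grey) and after IL-4 for 1 hr (red) on a log axis, with bars for the rounding of the score (0.05 either way, not a replicate error) and crosses where no transcript was called. Socs1 stands at 0.3 and 2.5, Cish and Socs2 have no call in control, and Socs4 and Socs6 have equal scores in both libraries.

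Among the 4 members with long N-terminal regions, Socs5 gained called transcripts and coverage, and Socs4, Socs6 and Socs7 differed by less than 1 percentage point in coverage of the annotated gene. Socs4 (ENSMUSG00000048379.9, chromosome 14, 47276931 to 47296102, plus strand), linked to regulation of the EGF receptor, had 1 promoter transcript in each library, both of score 0.2 with 5′ ends within 4 bp of the annotated start. Its centred log2 ratio was 0.38 (-0.36 to 1.12), which is the value of any gene with equal printed scores. Own-strand coverage of the gene was 2.04% in control against 2.98% with IL-4, and the transcripts counted there include 1 near its 3′ end (score 0.5 in control, 0.3 after IL-4) that carries the name of Mapk1ip1l.

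Socs5 (ENSMUSG00000037104.9, chromosome 17, 87107679 to 87137839, plus strand), which has been reported to bind the IL-4 receptor in T cells, had 7 control transcripts and 12 with IL-4. Its highest score was 2.2 in control against 2.9 with IL-4, and the centred log2 ratio was 0.78 (0.72 to 0.83). Both scores came from overlapping calls of 60 and 81 bp in intron 1, about 9.8 kb from the start. In the IL-4 file that call is annotated as a simple repeat. With repeat transcripts left out, the remaining highest scores were 2.2 and 0.4 and the centred log2 ratio was -2.14, because only the IL-4 call bears the repeat label. The transcript close to the start of Socs5 scored 0.2 in both libraries. With scores summed over transcript length, Socs5 stood at 1.06, past 2-fold. Own-strand coverage was 2.97% in control and 12.6% after IL-4, with 5 of the 10 own-strand calls after IL-4 scoring 0.1, the lowest score above 0. The promoter-proximal transcripts on the other strand scored 0.3 and 0.2 in control and 0.1 after IL-4.

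Socs6 (ENSMUSG00000056153.15, chromosome 18, 88665224 to 88927481, minus strand), linked to the insulin and KIT receptors, had 5 transcripts in each library, and none overlapped a transcript of the other library on the same strand. The highest score was 0.3 in both, from a 544 bp call in intron 1 (88893569 to 88894112) in control and a 108 bp low-complexity call in intron 2 (88878908 to 88879015) after IL-4. Equal highest scores thus came from different places. Over the 29154 bp of its first-numbered transcript, coverage was 7.26% in control and 4.33% after IL-4.

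Socs7 (ENSMUSG00000038485.5, chromosome 11, 97362551 to 97398542, plus strand), an adaptor of insulin receptor substrates, was the only member with a lower value at the 2-fold limit. Its highest score was 0.3 in control, from an 86 bp call in the 3′ UTR, and 0.1 after IL-4, from a 309 bp call at the promoter. The centred log2 ratio was -1.21 (-2.43 to -0.36), so the printed decimal also allows values under 2-fold. These calls lie at opposite ends of the gene, and scores summed over transcript length gave a centred log2 ratio of 0.92, in the other direction.

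Counted together, 2 of the 6 members with a ratio were at least 2-fold higher (Socs1 and Socs3), against 8.06% of all 8879 genes. At least 2-fold lower was 1 of 6 (Socs7), against 8.62% of all genes. Called in the IL-4 library only were 2 of 8 members (Cish and Socs2), against 11.1% of the 11054 genes named in either library, and 0 of 8 were called in control only, against 8.58%. The median centred log2 ratio of the 6 was 0.58, where the median over all genes is 0. When the whole rounding range had to clear 2-fold, only Socs1 was left. Of the family's 42 IL-4 transcripts, 33 had no overlapping control transcript on the same strand, against 48.1% of all IL-4 transcripts, and of its 17 control transcripts 7 had no IL-4 counterpart, against 37.4% of all control transcripts. Socs1 and Cish contributed 15 of those 33. Without them 18 of 25 IL-4 transcripts and 7 of 15 control transcripts were unmatched. Transcripts of 1 gene share a source, so these counts are not of independent events. The called length named for the family was 5.16 times as large after IL-4, and 2.47 times as large without Socs1 and Cish, against 1.71 for all transcripts. Calls of at least 1000 bp numbered 0 in control and 5 after IL-4 for the family, all 5 named Socs1 or Cish. Over all transcripts they numbered 163 and 989, so long calls were not particular to these genes.

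Coverage of the gene by own-strand transcripts is read from the positions of calls, whatever their score, and is stated per gene length. With scores of at least 0.3 only, coverage after IL-4 was 52.0% for Cish, 8.11% for Socs3 and 2.42% for Socs5. That of Socs1 stayed at 99.2%. Coverage also varies with gene size. Its control median was 5.44% for genes of 2000 to 10000 bp and 1.81% over protein-coding genes of all sizes. The order over the family is not corrected for gene size. After IL-4 the order was Socs1 (99.2%), Cish (69.3%), Socs3 (21.5%), Socs5 (12.6%), Socs2 (5.41%), Socs4 (2.98%), Socs6 (0.481%) and Socs7 (0.183%). In control, Socs1 (8.74%) and Socs3 (8.69%) led at nearly equal values, and Socs5 followed at 2.97%. The steps after IL-4 from Socs1 to Cish and from Cish to Socs3 are the wide ones, and the spread that separate cultures would give is unknown. On the span of the first-numbered transcript of each gene, a measure added after the values were seen, Socs2 (24.6%) came next after Socs3 (27.5%).

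Over 8952 protein-coding genes with an own-strand transcript in either library, the median coverage was 1.81% in control against 2.76% with IL-4. A gain of 50 percentage points or more, a limit set with the members' values known, was found for 20 of them (0.223%), and both Socs1 (gain of 90.5 points) and Cish (gain of 69.3 points) were among these. The other members gained at most 12.8 points (Socs3), followed by Socs5 with 9.62 and Socs2 with 5.41. Socs1 had rank 3 and Cish rank 6, and the 2 genes above Socs1, Gm3625 and Hist2h2ab, are only 102 and 444 bp long. Among the other genes of this set, named because of these values, were the IL-4 receptor chain gene Il4ra (12.2% to 78.2%), the inhibitory Fc receptor gene Fcgr2b (7.62% to 67.4%), the syndecan gene Sdc4 (6.86% to 65.3%), the RNase gene Zc3h12a (15.7% to 69.5%) and the cell cycle inhibitor gene Cdkn1a (13.3% to 65.2%). The set also held the neutrophil marker S100a8 (31.9% to 82.9%), and the part of neutrophil transcription in the gains of Socs1 and Cish was not tested. For genes of 2000 to 10000 bp, the size class of Socs1 and Cish, the median gain was 2.66 points over 1836 genes. On the added span of the first-numbered transcript, Socs1 kept rank 3 and Cish had rank 11 of 8628 genes. The gains were 90.5 and 65.2 points by that measure.

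**Figure D4:**
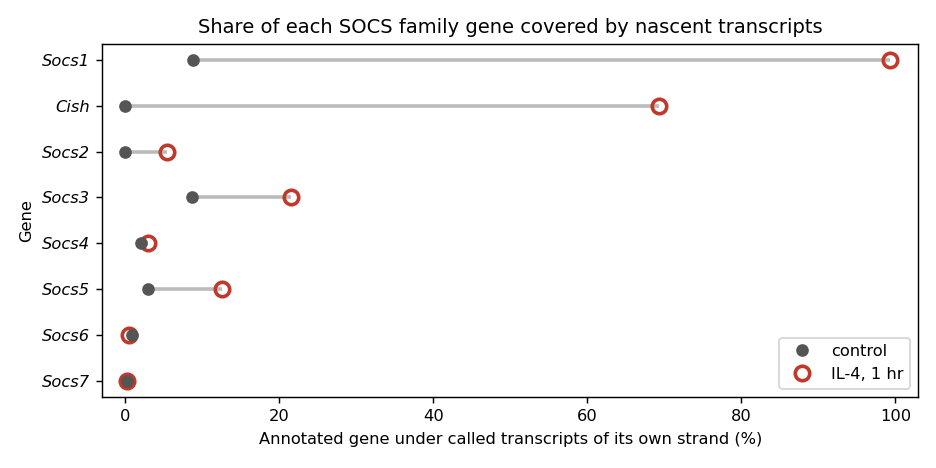
Share of each annotated SOCS family gene that lies under called transcripts of its own strand, in percent, in control (filled grey) and after IL-4 for 1 hr (open red), joined by a line. Socs1 goes from 8.74% to 99.2% and Cish from 0% to 69.3%, while Socs4, Socs6 and Socs7 stay below 3% in both libraries.

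The surroundings were examined to see whether genes within 50 kb shared these differences. At Socs1, Clec16a had values of 0.6 and 0.5, a centred log2 ratio of 0.12 (-0.15 to 0.38). The protamine cluster next to Socs1 (Tnp2, Prm3, Prm2 and Prm1), Gm11172 and 3 noncoding or pseudogene entries (Gm46563, Gm10343 and Gm26822) had no call in either library, and Rmi2 had 1 of score 0.2 after IL-4 only. Of the 7 protein-coding neighbours of Socs1, only 1, Clec16a, had a ratio, and it did not share the large difference. Entries without a call cannot show whether they differed. At Cish it was otherwise. Mapkapk3, a kinase gene downstream of p38 that lies 6149 bp away and is transcribed in the opposite direction, was named after its values were seen. Its highest score was 2.2 in control against 4.4 with IL-4, both from calls in intron 2 that are annotated as repeats, and the centred log2 ratio was 1.38 (1.33 to 1.43). Its own-strand coverage was 8.36% and 27.9%. On the other side of Cish, Hemk1 had no call in control and own-strand calls of at most 0.1 after IL-4. Near Socs3, Pgs1 had values of 0.5 and 0.3 (-0.36, range -0.76 to 0.02), and Gm11726 and Mir6933 had none. Near Socs7, Arhgap23 had 0.6 and 0.3 (-0.62), Mrpl45 had 0.1 after IL-4 only, and Gpr179 and Gm11594 had none.

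The genes nearest to a member in centred log2 ratio were listed over the 2 libraries, leaving out genes below the median gene value in both. For Socs1 these were Prrg1 (0.2 and 1.4), Dctn6 (0.1 and 0.7) and Pecam1 (0.1 and 0.7), all at 3.19. Their own-strand coverage after IL-4 was 2.62%, 0.370% and 3.18%, so a ratio close to that of Socs1 came without its filled gene body. For Socs3 the ratio of 1.12 was shared by 87 other genes, led by Traf5 (2.1 and 3.5), 4930544D05Rik (1.2 and 2.0) and Ggnbp2 (0.9 and 1.5). For Socs7 the ratio of -1.21 was shared by 281 other genes, led by Wasf2 (6.3 and 2.1), A330023F24Rik (3.6 and 1.2) and Fblim1 (3.0 and 1.0).

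The genes of the pathway in which the SOCS proteins act were then examined as 8 lists with 88 genes in all. Of these, 61 had a ratio, 3 of them at least 2-fold higher and 3 at least 2-fold lower, with a median centred log2 ratio of 0.09. Neither count exceeded the share over all genes, 8.06% higher and 8.62% lower. Among the IL-4 receptor chains, Il4ra, whose product binds IL-4 and docks STAT6, had values of 0.9 and 2.2, a ratio of 1.67 (1.56 to 1.78). Il2rg, the common gamma chain, had a call of 0.3 in control only, and Il13ra1 had none. Of the 4 JAK genes, Jak1 was lower, with 7.5 and 2.8 (-1.04, range -1.08 to -1.01), and the other 3 were under 2-fold. Of the 7 STAT genes, Stat5b was lower, with 2.4 and 0.9 (-1.04, range -1.15 to -0.93), 5 were under 2-fold and 1 had no call. The own-strand coverage of Jak1 was 3.35% in control against 3.89% with IL-4, and that of Stat5b was 5.27% and 5.33%. These coverages are not centred as the score ratios are. The median over protein-coding genes with an own-strand transcript was 1.81% in control and 2.76% after IL-4.

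The other inhibitors and the ligase partners had values in both libraries. None of the 10 other JAK-STAT inhibitors, which include the phosphatases Ptpn1, Ptpn2 and Ptpn6 and the PIAS proteins, reached 2-fold, and their median was 0.15. With 8.06% of all genes higher and 8.62% lower, a count of 0 in a list of this size is close to the background. The nearest to the limit, named after their values were seen, were Ptpn1 (3.0 and 4.5) and Ptpn6 (0.4 and 0.6), both at 0.96, and own-strand coverage of Ptpn1 was 12.9% and 41.4%. Of the 9 genes of the elongin and cullin ligase that SOCS boxes recruit, 0 reached 2-fold, with a median of 0.16. Ube2m, which encodes a NEDD8-conjugating enzyme and was named after its values were seen, had equal scores of 0.3 but own-strand coverage of 19.7% and 59.1%. Among 27 other genes with a SOCS box, 12 had a ratio and Asb6 was higher, with 0.1 and 0.4 from 1 transcript in each library (2.38, range 1.60 to 3.55). Asb2 (0.2) and Spsb1 (0.3) were named in control only and Asb3 (0.2) after IL-4 only. Of 26 receptors on which the family acts, 18 had a ratio, with a median of -0.04. Csf3r, the G-CSF receptor gene and a known target of SOCS3, was higher, with 3.9 and 9.4 (1.65, range 1.62 to 1.67) and own-strand coverage of 13.1% and 63.4%. Igf1r was lower, with 1.4 and 0.5 (-1.11, range -1.31 to -0.92), and Il7r was called in control only, at 0.2. Of the insulin receptor substrate genes, Irs2 had a ratio of 0.60 and Irs1 had no call.

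**Figure D5:**
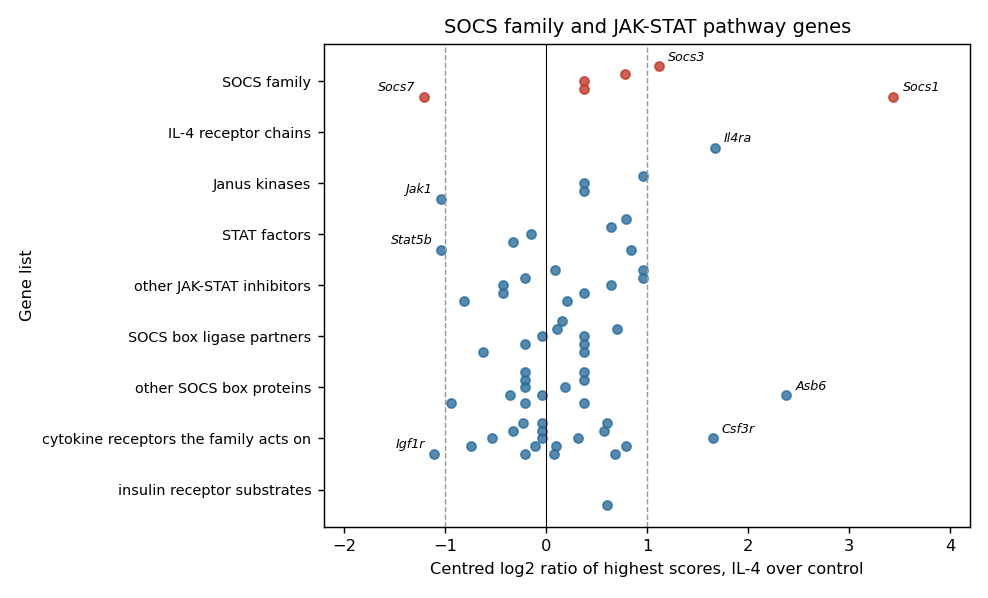
Centred log2 ratio of highest scores, IL-4 over control, for each gene with a value in both libraries, by list, with the SOCS family in red and dashed lines at 2-fold either way. Socs1 at 3.44 is the highest point drawn, and Asb6, Il4ra, Csf3r and Socs3 are the others above the upper line. Rounding ranges are not drawn, and that of Asb6 (1.60 to 3.55) overlaps that of Socs1 (3.19 to 3.73). Cish and Socs2 have no ratio and are not drawn.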

How the data were processed

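GRO-seq libraries of control BMDMs and of BMDMs treated with IL-4 were assigned to groups by their treatment label. The authors aligned reads to mm10 (GRCm38), removed ENCODE blacklist regions and called transcripts per library in the groseq style of HOMER. The submitters' processing notes list BWA 0.7.10, SAMtools 0.1.19 and HOMER 4.2. The only measurement is the score the authors deposited, rounded to 1 decimal, with scaling not stated. Depth is unknown, so no intervals were given.

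Python 3.11.15 and pandas 2.3.3 were used. A gene's value was its highest score, ratios were centred on the median gene, and 2-fold was the limit. Matches needed 1 bp of same-strand overlap. Coverage used the GENCODE M21 annotation. Scripts were tested on simulated data. The simulated gene values were at least 1 in control, so scores as low as those of most members were not covered by that test. All members were named, along with pathway genes past 2-fold or with a value in 1 library, the 3 nearest genes in ratio, and neighbours within 50 kb of members past 2-fold. Members and lists were chosen with earlier results of these data known. Alternatives were other gene values, centring, repeats, length and score limits, and gene spans.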

Additional observations from a re-analysis of the deposited data

How the results depend on the processing

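Socs1 was at least 2-fold higher under all 11 alternatives, with centred log2 ratios of 2.74 to 5.98. The number of SOCS members at least 2-fold higher, 2 in the report, was 1 with the transcript nearest the TSS, without centring, at a 3-fold limit and over the whole rounding range, and 4 with missing values set to 0.1, where Cish stood at 2.91 and Socs2 at 1.91. The number at least 2-fold lower, 1 in the report, was 0 with summed scores, with transcripts of at least 100 bp, at a 3-fold limit and over the whole rounding range, 2 with the transcript nearest the TSS, and 3 with repeat transcripts left out. Socs7 changed direction with summed score times length (0.92) and with the same sum over own-strand transcripts of the gene (0.125). With score times length, summed either way, both counts were as reported but for other genes: Socs5 (1.06 and 1.16) was higher in place of Socs3 (0.90 and 0.91), and Socs6 (-1.12 and -1.25) was lower in place of Socs7. With repeats left out, Socs5 was at -2.14 and Socs6 at -1.26. The other alternatives left both counts within 1.5 times of those reported. The number of members with a coverage gain of 50 points or more was 2 in all 4 settings, including the added span of the first-numbered transcript. With transcripts of a score of at least 0.3, the gain of Cish was 52.0 points. That is just over the limit, which was set with the members' values known. Causes of these shifts were not tested. No paired analysis was possible because each condition had 1 library, and leaving out a replicate was not possible for the same reason. Scores of 0.1 to 0.3 sit at the bottom of the printed scale, and these include every control value of the members apart from that of Socs5.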
